A study of Mus musculus with 16 samples.

Results

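Genes that mark or serve the thyrotroph, the pituitary cell that makes thyroid-stimulating hormone (TSH), were followed in pituitary RNA: *Tshb*, *Trhr*, *Dio2*, *Thra* and *Thrb*. They were chosen by name, all 5 are among the 17362 genes listed in the deposited table, and all 5 passed the filter on low values. The table holds 1 bulk RNA-seq library from each of 16 female mice aged 27 weeks, 4 in each combination of genotype and diet. Controls were *Esr1* fl/fl females, and mutants were *Esr1* Nkx2.1-cre females, which carry the same floxed allele and lose *Esr1*, the gene for oestrogen receptor alpha, wherever *Nkx2-1* is or was expressed. Each genotype was fed either standard chow (SD) or a high-fat diet (HFD), the latter for 17 weeks, and all mice were of a mixed CD-1 and 129P2 background. *Nkx2-1* marks the ventral hypothalamus and the posterior lobe of the pituitary, and the anterior lobe that holds the thyrotrophs derives from oral ectoderm.

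TSH is a dimer of the beta subunit encoded by *Tshb* and an alpha subunit, encoded by *Cga*, that it shares with the gonadotrophins. Thyrotrophs release it when hypothalamic thyrotropin-releasing hormone (TRH) binds the receptor encoded by *Trhr*, and thyroid hormone shuts the loop by lowering *Tshb*, *Trhr* and *Trh* transcription. The enzyme encoded by *Dio2* converts the prohormone T4 into the active hormone T3 inside the cell, and T3 acts through the nuclear receptors encoded by *Thra* and *Thrb*. In the pituitary, the TR-beta-2 form made from *Thrb* carries much of this feedback. *Dio2* is also known from folliculostellate cells, astrocytes and tanycytes.

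On GRCm38, with GENCODE M21 annotation, *Tshb* (ENSMUSG00000027857) lies at chr3:102775465-102782718 on the minus strand, inside *Tspan2* on the opposite strand but sharing no exon with it. *Dio2* (ENSMUSG00000007682) lies at chr12:90724552-90738438 on the minus strand and has 1 annotated transcript of 5815 bp. Its exons share 100 bases with those of *Gm26512*, a noncoding gene on the opposite strand that is not among the genes listed. *Trhr* (ENSMUSG00000038760) lies at chr15:44196135-44235912, *Thra* (ENSMUSG00000058756) at chr11:98740638-98769006 and *Thrb* (ENSMUSG00000021779) at chr14:17660261-18038090, all on the plus strand. The *Thra* exons overlap those of *Nr1d1*, a clock repressor read from the other strand, by 263 bases. The sources used here do not state whether strand was used in quantification. The *Thra* and *Dio2* values are therefore uncertain by whatever reads of *Nr1d1* and *Gm26512* fall in these overlaps. The *Thrb* value sums over its transcripts, and TR-beta-1 and TR-beta-2 were not separated.

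The sequences before the start sites of *Dio2* and *Tshb* are shown because these are the member whose RNA differed most between genotypes and the member that defines the cell. Each run holds the 250 bases before the RefSeq start on GRCm38.p6, read 5′ to 3′ on the gene's own strand, with the motifs found in capitals. The *Dio2* run is chr12:90739039-90739288 and the *Tshb* run is chr3:102782715-102782964, both on the minus strand.
Dio2: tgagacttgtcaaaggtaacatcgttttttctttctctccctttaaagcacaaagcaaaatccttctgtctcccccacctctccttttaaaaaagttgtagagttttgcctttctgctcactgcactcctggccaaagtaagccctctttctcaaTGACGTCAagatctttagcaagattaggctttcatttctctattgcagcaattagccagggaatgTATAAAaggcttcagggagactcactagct
Tshb: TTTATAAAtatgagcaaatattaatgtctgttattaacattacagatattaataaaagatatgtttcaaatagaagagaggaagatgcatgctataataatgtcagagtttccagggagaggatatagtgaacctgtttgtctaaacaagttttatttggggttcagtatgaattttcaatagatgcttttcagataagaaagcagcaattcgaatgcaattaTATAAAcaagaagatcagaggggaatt
In *Dio2*, the capitals mark a cyclic AMP response element (TGACGTCA), 95 to 88 bases before the start, and a TATA box (TATAAA), 30 to 25 bases before it. In *Tshb*, they mark a TATA box 27 to 22 bases before the start and, at the far end of the run, TATAAA on both strands in overlapping letters. Both strands were searched, and of 32851 promoter windows of this length TGACGTCA was found in 1.55% and TATAAA in 12.4%. Neither run held AGGTCA, a site bound by nuclear receptor monomers and found in 14% of windows, or the oestrogen response element searched as GGTCA and TGACC set 3 bases apart, found in 0.0639%. RefSeq starts *Dio2* upstream of the GENCODE gene end, at position 90739038.

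The deposited values are normalized per library and per transcript length, so levels of different genes can be set side by side. *Tshb* averaged 321 units over the 16 mice, above 98.6% of the 14345 genes tested. *Thra* (61.7 units), *Dio2* (44.1 units) and *Thrb* (40.4 units) stood close together, above 89%, 82.8% and 80.8% of genes. *Trhr* averaged 1.33 units and stood above only 3.84% of genes. The highest mouse exceeded the lowest by 5.27-fold for *Dio2*, 3.46-fold for *Thrb*, 3.29-fold for *Tshb*, 2.72-fold for *Trhr* and 1.88-fold for *Thra*. By the size of 1 read, estimated from genes with 1 transcript, *Dio2* rested on 1388 to 9014 reads per library. *Trhr* rested on 18 to 117 reads, depending on its transcript, and *Thrb* on 22 to 142 if read from its shortest coding transcript and on 1761 to 6775 if read from its longest.

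*Esr1* RNA and the libraries were looked at first. *Esr1* was lower in mutants than in controls on SD, 18.6 ± 5.77 against 38.9 ± 7.32 units (SD, n = 4 each), a log2 fold change of -1.09 (SE 0.25, limma adjusted p = 0.0409), which passed in 6 of 16 fits with a mouse left out. On HFD the means were 29.0 ± 5.53 in mutants and 37.3 ± 9.29 in controls, with overlapping groups. The log2 fold change there was -0.34 (SE 0.25, limma adjusted p = 0.696). The lowest control on HFD, at 23.6 units, lay inside the range of the mutants on HFD, 21.5 to 33.4 units. *Esr1* RNA of the whole gland therefore cannot settle the label of each mouse, and it does not show which lobe held the difference. Averaged over diets the log2 fold change was -0.71 (SE 0.18, limma adjusted p = 0.028), passing in 10 of 16 fits with a mouse left out. The thyrotroph markers *Tshb*, *Trhr*, *Dio2*, *Cga*, *Pou1f1* and *Gata2* were all in the table, and their mean log2 value lay between 6.23 and 6.84 in every mouse. As *Tshb*, *Trhr* and *Dio2* are members, this mean is not an independent check of thyrotroph content. It also joins genotype changes of opposite sign averaged over diets, such as 1.34 for *Dio2* and -0.55 for *Gata2* (limma adjusted p = 0.185 for *Gata2*). A pair of libraries stood apart: the mean log2 value of melanotroph and posterior lobe markers was 2.35 in P357 (mutant on SD) and 2.80 in P392 (control on HFD) against 4.17 to 4.89 in the other mice. Where leaving out these libraries moved a value of a member by much, the value without them is given beside it. In bulk RNA, fewer cells of a type and less RNA per cell cannot be told apart.

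*Dio2* was the member with the clearest difference between genotypes. Among controls on SD it measured 29.1, 28.6, 18.3 and 14.7 units, and among mutants on SD 37.9, 58.8, 52.4 and 61.3 units. Among controls on HFD it measured 24.0, 15.5, 14.7 and 71.7 units, and among mutants on HFD 77.3, 65.4, 74.6 and 60.8 units. All mutants were above all controls except P392, which stood inside the range of the mutants on HFD. The groups on SD did not overlap, and those on HFD overlapped through P392 alone.

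**Figure D1:**
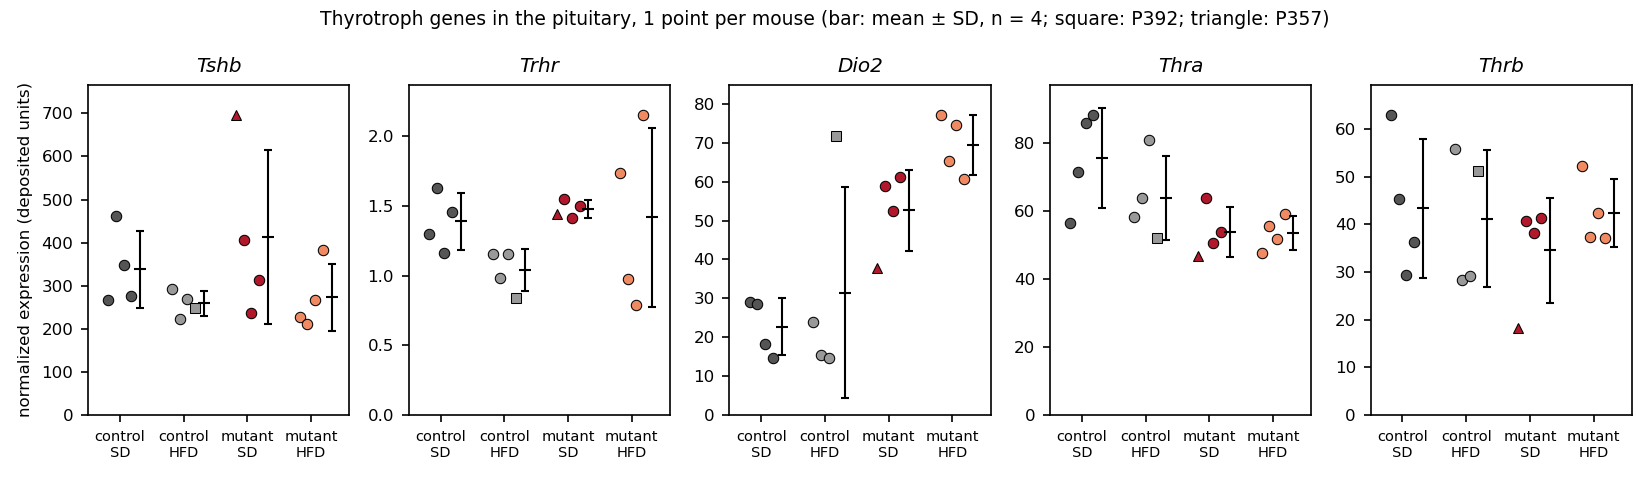
Normalized expression (deposited units, vertical axis from 0) of *Tshb*, *Trhr*, *Dio2*, *Thra* and *Thrb* in the 4 groups, with 1 point per mouse and a bar for the mean ± SD (n = 4). The 4 *Dio2* points of mutants on SD sit between 37.9 and 61.3 units, above the 14.7 to 29.1 units of controls on SD, and the square at 71.7 units is P392.

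Averaged over both diets, *Dio2* was 2.53-fold higher in mutants (95% interval 1.71 to 3.74), a log2 fold change of 1.34 (SE 0.27, limma adjusted p = 0.01, two-sided exact permutation p = 0.00122 over 4900 arrangements). Its p ranked 187 of 14345 genes, of which 938 (6.54%) passed an adjusted p of 0.05, 642 (4.48%) higher and 296 (2.06%) lower in mutants. *Dio2* was the only 1 of the 5 members that passed, and *Tshb*, *Trhr*, *Thra* and *Thrb* did not.

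Within each diet, *Dio2* did not pass the adjusted threshold with all mice in the fit. On SD the group means were 52.6 ± 10.5 and 22.7 ± 7.28 units, a log2 fold change of 1.23 (SE 0.38, limma adjusted p = 0.0964, exact permutation p = 0.0286, the smallest that 4 against 4 allows). None of the 5 members passed on SD, where 264 genes (1.84%) did, and *Dio2* was the 1 member whose groups did not overlap, as for 10.6% of all genes. On HFD the means were 69.5 ± 7.73 and 31.5 ± 27.1 units, a log2 fold change of 1.44 (SE 0.38, limma adjusted p = 0.211, exact permutation p = 0.0857). On HFD no gene passed (0%) with limma, 1461 had an unadjusted p under 0.05, and no member had groups apart, against 5.3% of all genes.

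The result within each diet turned on P392. Without it, controls on HFD averaged 18.1 ± 5.15 units (n = 3), the log2 fold change on HFD was 1.94 (limma adjusted p = 0.000314) and that on SD, still 1.23, had an adjusted p of 0.00496, since all groups share 1 estimate of the spread. Many other genes passed in the same fits, 777 (5.42%) on SD and 653 (4.55%) on HFD. Without P357 and P392 together, the log2 fold change was 1.38 on SD (limma adjusted p = 0.00311, 6.7% of genes passing), 1.94 on HFD (0.000265, 7.42%) and 1.66 averaged over diets (1.4e-05, 18.6%). With each of the 16 mice left out in turn, the average stayed between 1.21 and 1.59 and passed in 16 of 16 fits, with an adjusted p of at most 0.0256.

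**Figure D2:**
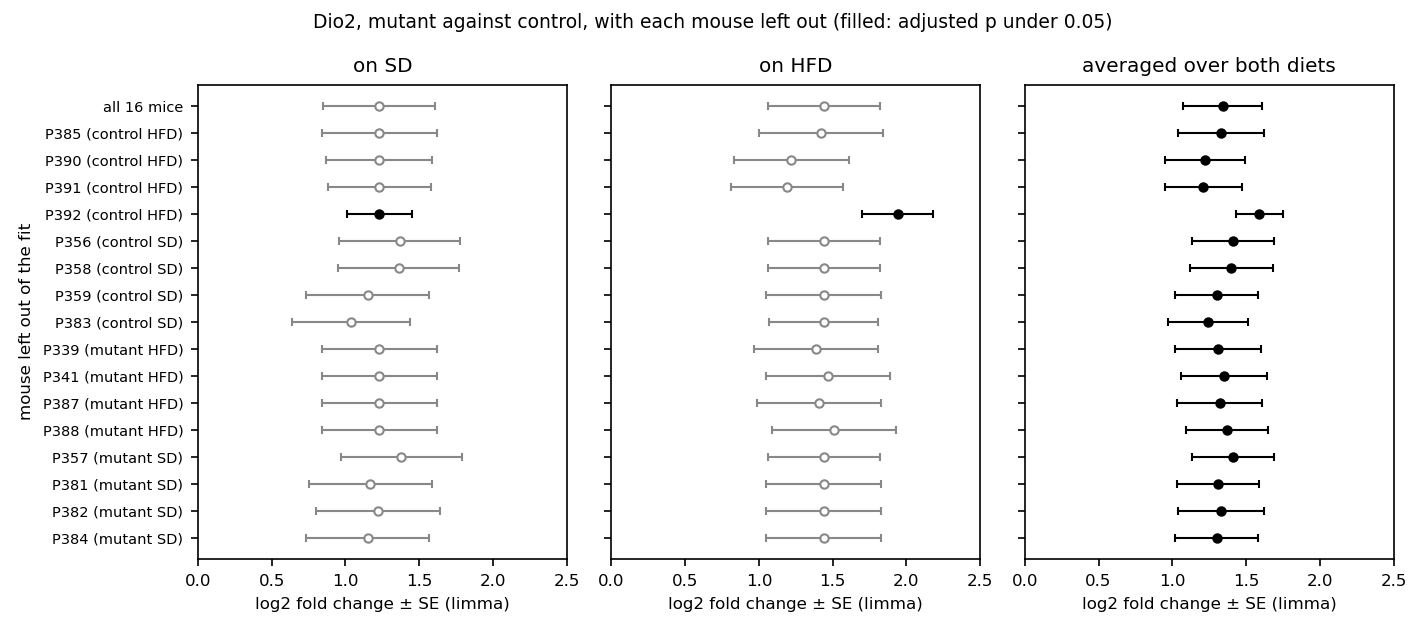
Log2 fold change of *Dio2* in mutants against controls (horizontal axis, ± SE, limma) with each mouse named on the vertical axis left out, on SD, on HFD and averaged over both diets. The point without P392 is the only filled one on SD (1.23) and on HFD (1.94), and all points are filled in the average (1.21 to 1.59).

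The order of the group means of *Dio2* was mutants on HFD (69.5), mutants on SD (52.6), controls on HFD (31.5) and controls on SD (22.7 units). Neighbours in this order differed by diet only, or by both genotype and diet in the middle pair, and the diet steps were within the spread. Without P392, controls on HFD averaged 18.1 units, below controls on SD, and the log2 fold change of HFD against SD in controls was -0.30. The log2 fold change of HFD against SD was 0.42 in mutants (SE 0.38, limma adjusted p = 0.827, exact permutation p = 0.0571) and 0.20 in controls (SE 0.38, adjusted p = 0.999). For a difference of the genotype effect between diets, *Dio2* did not pass (interaction 0.22 on the log2 scale, 95% interval -0.91 to 1.35, limma adjusted p = 0.964). No gene passed for the interaction (0%), and 602 had an unadjusted p under 0.05.

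Markers of other cell types were read beside *Dio2*. The summed level of the endothelial markers *Pecam1*, *Cdh5*, *Kdr* and *Emcn*, all 4 in the table, was 33.7 to 46.1 units in controls on SD and 37.6 to 42.7 units in 3 controls on HFD. In mutants it was 61.2 to 71.2 units on SD, 61.8 to 74.5 units on HFD, and in P392 it was 86.6 units. The endothelial sum therefore split the mice as *Dio2* did, except that P392 lay above all mutants and not inside their range. *Pecam1*, an endothelial adhesion molecule, was higher in mutants averaged over diets by 0.60 on the log2 scale (SE 0.13, limma adjusted p = 0.0175). *Cdh5* also passed (0.62, adjusted p = 0.019), and *Kdr* (0.61, adjusted p = 0.0529) and *Emcn* (0.44, adjusted p = 0.119) did not. The summed stem and folliculostellate markers *Sox2*, *S100b* and *Aldh1a2* (3 of 3 in the table) ranged from 39.2 to 47.6 units in controls on SD, 43.2 to 56.6 in controls on HFD, 52.8 to 83.4 in SD-fed mutants and 44.6 to 65.2 in HFD-fed mutants. The immune markers *Ptprc*, *Csf1r* and *Ctss* (3 of 3) summed to 12.8 to 18.7, 13.0 to 38.1, 20.1 to 64.0 and 21.6 to 52.3 units in the same order. Neither of these sums split the mice as *Dio2* did. Mutant P339 had a stem and folliculostellate sum of 44.6 units, below control P383 with 47.55. Mutant P388 had an immune sum of 21.61 units, below control P391 with 26.89. No marker of these lists was under 0.5 units in all mice. The part of these cell types in the *Dio2* difference was not tested.

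**Figure D3:**
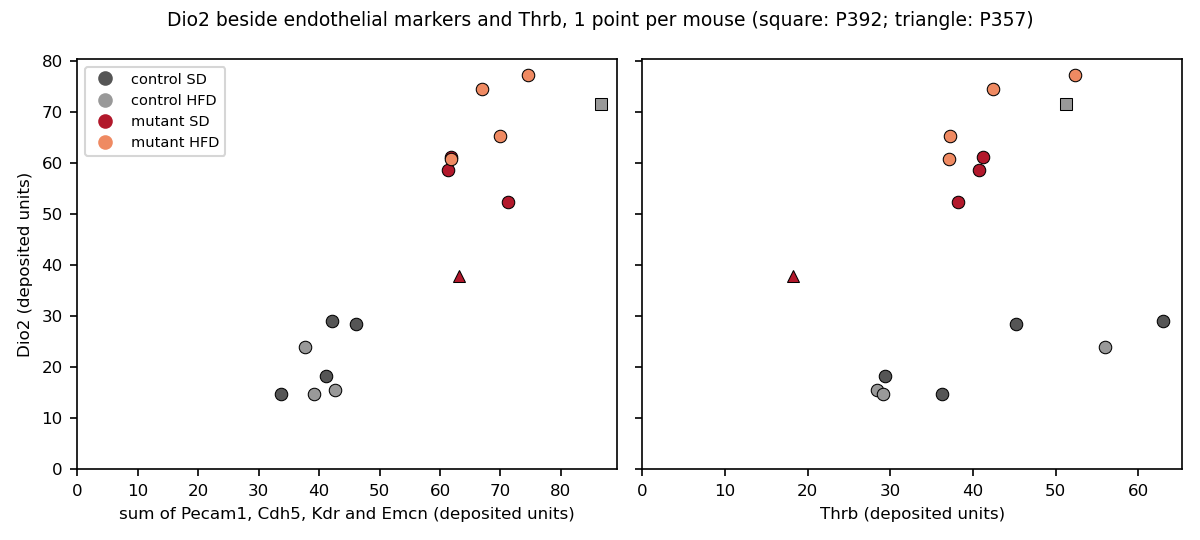
*Dio2* (vertical axis) against the summed endothelial markers (left) and against *Thrb* (right), in deposited units, with 1 point per mouse coloured by group. On the left, 7 controls lie at 33.7 to 46.1 units with *Dio2* at 14.7 to 29.1. P392 (square) has *Dio2* in the mutant range (71.7 units) and an endothelial sum above all mutants (86.6 units). On the right, P357 (triangle) has the lowest *Thrb*, 18.2 units.

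*Tshb*, the hormone subunit itself, passed in no comparison. It measured 267, 461, 348 and 277 units in controls on SD and 697, 406, 237 and 313 in mutants on SD. On HFD it measured 292, 224, 270 and 249 units in controls and 228, 212, 268 and 383.7 in mutants. The groups overlapped in all 4 comparisons, and the highest value of the series was that of P357. The log2 fold change between genotypes was 0.21 on SD (SE 0.27, limma adjusted p = 0.707) and 0.04 on HFD (SE 0.27, adjusted p = 0.982), and averaged over diets it was 1.09-fold with a 95% interval of 0.821 to 1.45. Without P357, the value on SD was -0.08. The difference of log2 *Dio2* minus log2 *Tshb* was larger in mutants by 1.21, averaged over diets (two-sided exact permutation p = 0.011). The averages behind it were 1.34 for *Dio2* and 0.13 for *Tshb*, so it mostly restates the *Dio2* result. Within diets it was 1.02 on SD and 1.40 on HFD, with overlapping groups (exact permutation p = 0.0857 each).

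The largest log2 changes of *Tshb* came with diet, and none passed. The means were 338 ± 89.4 units on SD and 259 ± 29.1 on HFD in controls, and 413 ± 202 on SD and 273 ± 77.5 on HFD in mutants. The log2 fold change of HFD against SD was -0.36 in controls and -0.52 in mutants (SE 0.27 each, limma adjusted p = 0.998 and 0.813). Averaged over genotypes it was -0.44 (SE 0.19, unadjusted p = 0.0376, limma adjusted p = 0.91, exact permutation p = 0.0498). Without P357 the value was -0.23 in mutants and -0.29 averaged over genotypes. *Tshb* ranked 547 of 14345 genes by p there, and 1 gene (0.00697%), none of the 5 members, passed. No gene passed for HFD against SD in controls (0%) or in mutants (0%) with limma, and 592 and 717 had an unadjusted p under 0.05.

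*Trhr*, the receptor for TRH, was low in every mouse. Controls had 1.30, 1.63, 1.16 and 1.45 units on SD and 1.16, 0.987, 1.16 and 0.844 on HFD. Mutants had 1.44, 1.55, 1.41 and 1.50 units on SD and 1.74, 0.975, 0.793 and 2.16 on HFD. Controls on HFD all fell below controls on SD by a narrow margin, while the mutants on HFD spread over the widest range of any group. In controls, HFD against SD gave a log2 fold change of -0.30 (SE 0.23, exact permutation p = 0.0286, limma adjusted p = 0.998). Groups did not overlap in this comparison for 1 of the 5 members and for 2.61% of all genes, and in mutants for none of the 5 and for 3.31%. Between genotypes *Trhr* differed by 1.12-fold averaged over diets, with a 95% interval of 0.888 to 1.42 (limma adjusted p = 0.58).

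*Thra*, which encodes TR-alpha, had lower means in mutants on both diets and did not pass the adjusted test. Controls on SD had 56.5, 71.5, 85.9 and 88.4 units and mutants on SD 46.9, 63.9, 50.5 and 53.7. Controls on HFD had 58.3, 63.8, 80.9 and 52.1 units and mutants on HFD 47.5, 55.7, 51.8 and 59.2. The groups overlapped on both diets, by P356 among the controls on SD and by P385 and P392 among those on HFD. The log2 fold change was -0.47 on SD (SE 0.15, limma adjusted p = 0.116, exact permutation p = 0.0571) and -0.24 on HFD (SE 0.15, adjusted p = 0.647). Averaged over diets it was -0.36 (SE 0.11, limma adjusted p = 0.0644, exact permutation p = 0.011), and it passed without P356 (-0.42, adjusted p = 0.0178), without P392 (-0.40, adjusted p = 0.025) and without P357 and P392 together (-0.37, adjusted p = 0.033). With 1 mouse left out, 441 to 1931 of all 14345 genes passed in the average, and without P357 and P392 18.6% did. *Nr1d1*, which shares exon bases with *Thra*, had means of 57.0 ± 31.6, 72.5 ± 28.4, 38.4 ± 5.42 and 53.0 ± 8.19 units in controls on SD, controls on HFD, mutants on SD and mutants on HFD, and a log2 fold change between genotypes of -0.39 averaged over diets (SE 0.24, limma adjusted p = 0.361).

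*Thrb*, the receptor of pituitary feedback, passed in no comparison. Controls had 63.0, 45.2, 29.3 and 36.2 units on SD and 55.9, 28.4, 29.2 and 51.2 on HFD. Mutants had 18.2, 40.8, 38.2 and 41.2 units on SD and 52.3, 37.3, 42.4 and 37.1 on HFD. The ranges of all 4 groups overlapped, and P357 held the lowest value. The log2 fold change between genotypes was -0.34 on SD (SE 0.29), 0.09 on HFD (SE 0.29) and -0.12 averaged over diets, where the fold interval ran from 0.678 to 1.24 (limma adjusted p = 0.772). Without P357 the value on SD was -0.06, the average was 0.02, and HFD against SD in mutants was 0.06. Without P392 the value on HFD was 0.22, and without both libraries the average was 0.08. Log2 *Thra* minus log2 *Thrb* had a genotype difference that did not pass (-0.23 averaged over diets, exact permutation p = 0.433).

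**Figure D4:**
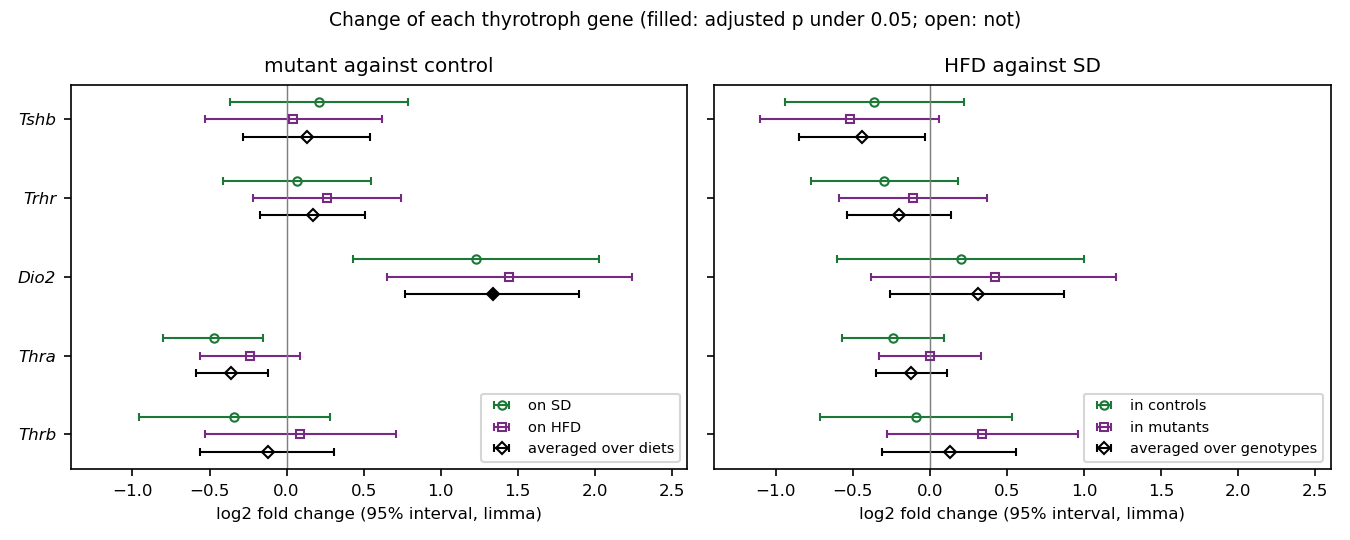
Log2 fold change of each member (horizontal axis) with its 95% interval from limma, for mutant against control (left) and HFD against SD (right). *Dio2* averaged over diets, at 1.34, is the 1 filled point, and for HFD against SD *Tshb* averaged over genotypes, at -0.44, is open.

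Across mice, after the group means were subtracted from the log2 values, 10 pairs of members were compared. *Dio2* and *Thrb* varied in the same direction within groups, with Pearson's r = 0.69 (permutation p = 0.00508, adjusted over the 10 pairs 0.0508) and Spearman's rho = 0.83 (permutation p = 0.00094, adjusted 0.0094). Without P392 and P391, the mice farthest from the median of *Dio2*, r was 0.78. Without P357 and P392 the pair gave r = 0.84 and rho = 0.93 (permutation p = 0.0121 and 0.00221, adjusted 0.0743 and 0.0221). The pair *Dio2* and *Thra* gave r = -0.59 and rho = -0.56 (permutation p = 0.0657 and 0.0649, adjusted 0.329 and 0.266), and r without the farthest mice was -0.39. Without P357 and P392 the pair gave r = -0.76 and rho = -0.80 (permutation p = 0.0278 and 0.02, adjusted 0.0927 and 0.0998). *Thra* and *Thrb* gave r = -0.46 and rho = -0.52 (permutation p = 0.143 and 0.0931, adjusted 0.403 and 0.266), and r = -0.78 and rho = -0.72 without these libraries (permutation p = 0.0149 and 0.0432, adjusted 0.0743 and 0.144). *Tshb* and *Trhr*, hormone and receptor, gave r = 0.33 and rho = 0.44 (permutation p = 0.201 and 0.106, adjusted 0.403 and 0.266). With all mice, the remaining pairs had adjusted p of at least 0.266 by either measure. *Dio2* and *Tshb* gave r = -0.12 and rho = -0.18 (permutation p = 0.518 and 0.486, adjusted 0.647 and 0.744).

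The genes most like each member over the 16 mice were found by Pearson's r of log2 values, genotype and diet differences included. For *Dio2* they were *Sez6l* (r = 0.970), *Pecam1* (0.967), *Zfp365* (0.967), *Fam19a5* (0.963) and *Plekhh2* (0.961). *Sez6l* averaged 4.29 ± 2.67 units in controls on SD and 16.9 ± 6.30 in mutants on SD. For *Tshb* they were *Slc10a4* (0.883), *Slc26a11* (0.855), *Olfr607* (0.835), *Gps2* (0.831) and *Nkiras1* (0.823), and for *Trhr*, *Sox11* (0.777), *Chl1* (0.733), *Rab3b* (0.720), *Hps3* (0.699) and *Lgr4* (0.691). For *Thra* they were *Zfp36l2* (0.941), *Loxl1* (0.940), *Rap1gap* (0.934), *Lrrc56* (0.929) and *Prkch* (0.920), and for *Thrb*, *Cdv3* (0.932), *Tspyl5* (0.915), *Wasf1* (0.913), *Nifk* (0.908) and *Eif4g1* (0.900). No member was among the 5 nearest genes of another.

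The rest of the thyroid axis was read from 7 lists with 57 genes, of which 50 were in the table, 46 passed the filter and *Lhx4*, *Trhde*, *Sstr2* and *Dio1* did not. *Trh*, *Trhr2*, *Nmbr*, *Slco1c1*, *Dio3*, *Shh* and *Mtnr1a* were not analysed here. Averaged over diets, 3 of the 46 genes (6.52%) passed for genotype, 2 higher and 1 lower in mutants, against 6.54% of all genes. The median log2 change of the 46 genes was -0.01 and that of all genes tested 0.00. Without P357 and P392, 10 of the 46 passed, against 18.6% of all genes. With single mice left out between 2 and 9 passed, the most without P356 (9) and P392 (8). Of all 14345 genes, 441 to 1931 passed in the fits with single mice left out. On SD with all mice, *Nmb* and *B4galnt3* passed (2 of 46, 4.35%, against 1.84% of all genes). When a mouse was left out, 0 to 6 of the 46 passed on SD, the most without P356, against 33 to 826 of all 14345 genes. With all mice none passed on HFD, for diet or for the interaction. On HFD *Thrsp* passed without P392 (1 of 46, against 4.55% of all genes), and *Slc7a5*, *Sstr1* and *Thrsp* (3 of 46, against 7.42% of all genes) passed without P357 and P392. *Drd2* passed on HFD with the lobe covariate (1 of 46), a fit for which the share of all genes is not given here.

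The gene that rose most among them was *Slc7a5*, the light chain of the LAT1 amino acid transporter, which also carries thyroid hormones. It averaged 14.9 ± 11.2 units in controls on SD, 21.9 ± 12.1 in controls on HFD, 34.6 ± 8.74 in mutants on SD and 41.5 ± 4.48 in mutants on HFD. Averaged over diets its log2 fold change was 1.23 (SE 0.28, limma adjusted p = 0.019), and it passed in 16 of 16 fits with a mouse left out. P356 and P392, with 31.6 and 37.4 units, were the control mice inside the mutant range on their own diets. The other genes of hormone transport and metabolism, among them the transporter *Slc16a10* and the carrier *Ttr*, did not pass (1 of 6 passing, median 0.36). Over all genes, 6.54% passed for genotype averaged over diets and the median was 0.00.

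*B4galnt3*, a transferase that adds the N-acetylgalactosamine found on TSH and LH glycans, fell in mutants. It averaged 10.7 ± 5.05 units in controls on SD, 5.59 ± 3.66 in controls on HFD, 2.37 ± 0.778 in mutants on SD and 2.40 ± 0.832 in mutants on HFD. The groups on SD did not overlap, and on HFD the controls P385 and P392, with 2.48 and 2.39 units, lay within the mutant range. Its log2 fold change was -1.87 on SD (SE 0.44, limma adjusted p = 0.0449) and -1.38 averaged over diets (SE 0.31, adjusted p = 0.0182), and with a mouse left out the average passed in 16 of 16 fits and the value on SD in 5. *Chst8*, the sulphotransferase that caps the same glycans, and *B4galnt4* did not pass (1 of 3 passing, median 0.10, against 6.54% and a median of 0.00 over all genes).

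*Nmb*, encoding neuromedin B, a peptide that restrains TSH release, was higher in mutants on SD, 19.3 ± 1.67 against 9.92 ± 3.98 units, a log2 fold change of 1.00 (SE 0.24, limma adjusted p = 0.0468). Averaged over diets it rose by 0.65 (SE 0.17, limma adjusted p = 0.0367), but with a mouse left out the average passed in 6 of 16 fits and the value on SD in 5. On HFD it averaged 20.1 ± 2.89 units in mutants and 16.8 ± 5.72 in controls, a log2 fold change of 0.29 (SE 0.24, adjusted p = 0.741), with overlapping groups. Of the signals to thyrotrophs it was the 1 of 5 that passed, beside the somatostatin receptors *Sstr1*, *Sstr3* and *Sstr5* and the dopamine receptor *Drd2* (median -0.07). Averaged over diets, 6.54% of all genes passed, and their median was 0.00. The lists of thyrotroph determinants (9 tested, median -0.06), receptor partners (11 tested, median -0.01), thyroid hormone response genes (8 tested, median 0.09) and pars tuberalis genes (4 tested, median -0.03) held no gene that passed, and 4, 2, 2 and 0 of them had an unadjusted p under 0.05, as had 3261 of all 14345 genes (22.7%). *Pou1f1*, the factor that specifies thyrotrophs, somatotrophs and lactotrophs, had a log2 fold change of -0.34 (SE 0.12, limma adjusted p = 0.11). *Cga*, the alpha subunit, had a log2 fold change of 0.42 on SD and -0.42 on HFD (SE 0.22 each, limma adjusted p = 0.306 and 0.554), which average to 0.00. Its interaction of genotype and diet was -0.83 (SE 0.31, unadjusted p = 0.0176, limma adjusted p = 0.924), and among controls all mice on HFD were above all mice on SD (0.55, SE 0.22, adjusted p = 0.998).

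**Figure D5:**
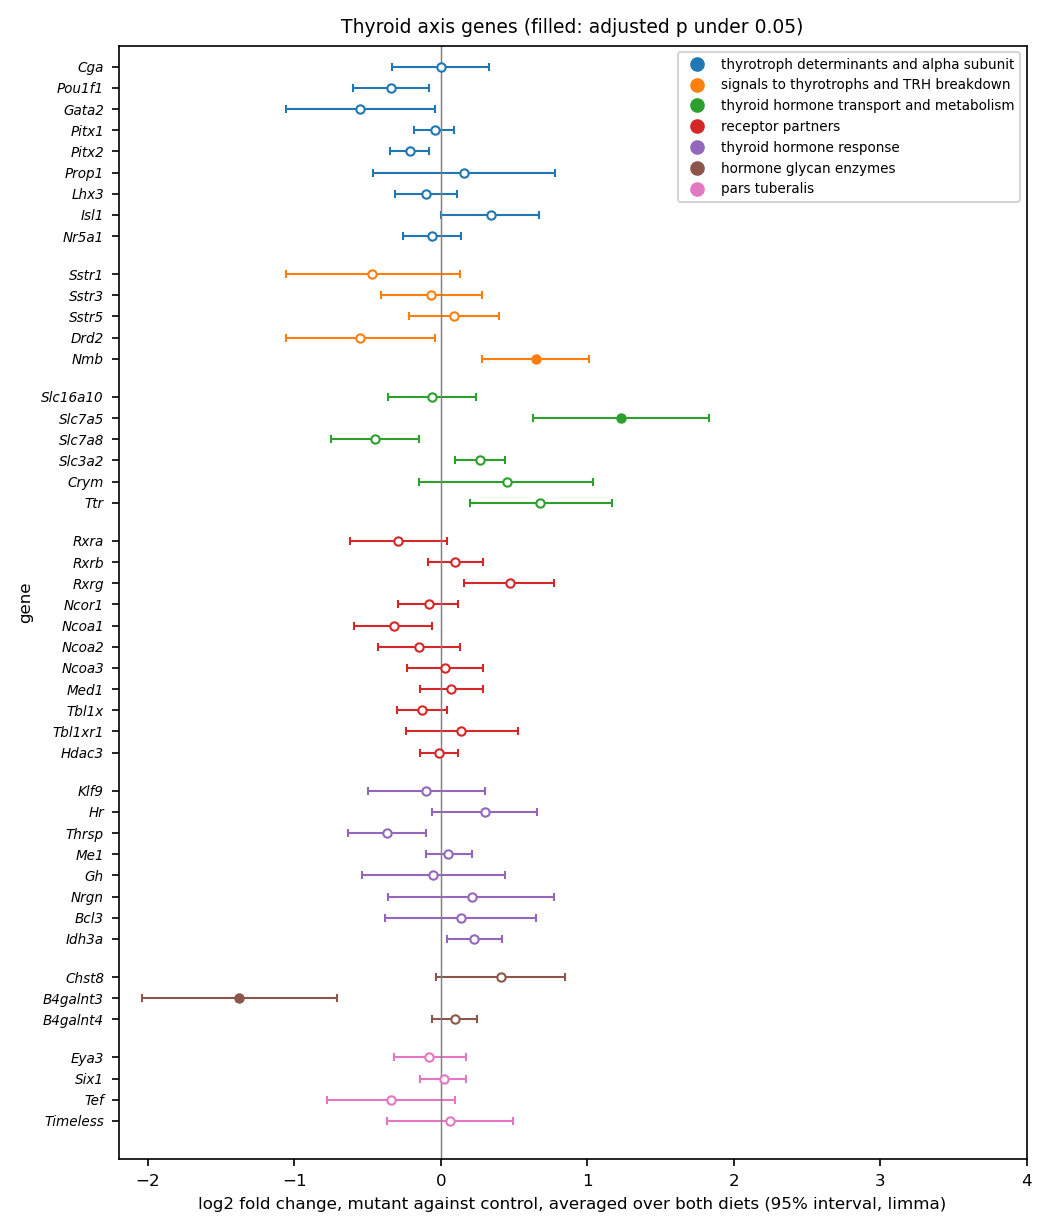
Log2 fold change between genotypes, averaged over both diets (horizontal axis, 95% interval from limma), for the 46 thyroid axis genes tested, coloured by list. The filled points, with an adjusted p under 0.05, are *Slc7a5* (1.23), *Nmb* (0.65) and *B4galnt3* (-1.38).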

How the data were processed

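Pituitary RNA was sequenced as 1 library per mouse. NEBNext Ultra II RNA libraries were made, and the authors ran Kallisto in gene mode on mm10 for quantification and Sleuth for tests. Tool versions and strand use are not given in the sources used here. Deposited values form a normalized signal for each gene and mouse, summing to 908897 to 1335782 per library (median 966116), and total reads are not given. In 1457 genes with 1 transcript, 81.8% to 91.7% of low values per library were whole multiples, within 0.15, of 0.0460 to 0.0688 units per kilobase, the estimated size of 1 read. These estimates cover counting error only.

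The values are not counts, so the planned count test and DESeq2 alternative were not run. Genes with a mean of at least 1 (14345) were tested as log2(value + 0.5), the scale of all fold changes, with limma 3.58.1 in R 4.3.3: a mean for each group, moderated variances with a trend, and Benjamini-Hochberg adjustment over all genes tested, at 0.05. Single genes were also tested by two-sided exact permutation of mice, within diet or genotype for averages, and correlations by 100000 permutations within groups. Simulated data were used to test the limma script. Figures used Python 3.11.15 and matplotlib 3.10.9.

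Groups came from the labels, which give no numbers that pair mice. Comparisons that share control mice are not independent. Symbols were paired for 17351 of 17362 genes. Promoter sequences are from RefSeq (GRCm38.p6), which held *Tshb*, *Dio2* and *Thrb* of the 5 members. Named genes are the members, the 7 thyroid axis lists, the genes that overlap a member, the 5 genes most like each member (predicted genes left out) and *Esr1*. *Pecam1* and *Sez6l* levels came from the markers and the likeness rule. Some genes of the lists are not reported here and were left out of their counts. Members and lists were chosen with earlier results of these data known. Alternatives were other filters, pseudocounts, scalings and thresholds, no trend, only the mice compared, covariates for animal number range and for the lobe markers, and mice left out.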

Additional observations from a re-analysis of the deposited data

Results flagged for a closer look

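In 15 genes of the thyroid axis or beside it, the 5 members among them, each of the 4 groups was examined for a value far from the rest. Of these 60 sets 4 held one, where chance gives about 1 in 20, or 3. *Dio2* was 71.7 units in P392, a control on HFD, against 14.7 to 24.0 in the others of its group. *Thrb* was 18.2 units in P357, a mutant on SD, against 38.2 to 41.2. *Slc7a5* was 31.6 units in P356, a control on SD, against 8.21 to 11.4. *Pou1f1* was 209 units in P385, a control on HFD, against 323 to 345. P357 and P392 are also the libraries with low lobe markers (2.35 and 2.80), and the part of this in their *Thrb* and *Dio2* values was not tested.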

How the results depend on the processing

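Values are log2 fold changes, mutant against control unless diet is named. *Dio2* averaged over diets had an adjusted p of 1.4e-05 to 0.017 under the 14 alternatives, and at 1.34 it missed a threshold of 0.01. *Dio2* passed on SD when only the mice compared were fitted (1.23, adjusted p = 0.0362) and on HFD with the lobe covariate (1.65, adjusted p = 0.0435). Without P357 and P392 it passed on SD (1.38) and HFD (1.94), and its diet effect changed sign in controls (-0.30) and on average (-0.02). *Thra* averaged over diets passed with the lobe covariate (-0.35) and without P357 and P392 (-0.37). The share of all genes passing with the lobe covariate, or with only the mice compared, is not given here. The *Dio2* and *Thra* calls in those fits therefore cannot be set against it. Other values that did not pass changed in sign or size. Without P357 and P392, *Tshb* diet in mutants was -0.23, *Thrb* on SD -0.06 and *Thrb* diet in mutants 0.06, each nearer to 0 with the same sign. Signs changed there for *Tshb* on SD (-0.08), averaged (-0.03) and for the interaction (0.11), and *Thrb* averaged over diets (0.08) and for diet (-0.08). With the lobe covariate they changed for the interactions of *Tshb* (0.16) and *Thra* (-0.01). *Tshb* on HFD was -0.02 under quantile normalization and -0.07 with the number range, *Trhr* on SD was -0.03 with sums without *Prl*, and diet in mutants gave 0.12 for *Thra* with those sums and 0.05 with the number range.

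With 1 mouse left out, *Tshb* ran from -0.08 to 0.43 on SD, -0.13 to 0.15 on HFD, -0.02 to 0.24 averaged, -0.39 to 0.13 for the interaction, -0.75 to -0.23 for diet in mutants and -0.55 to -0.29 for diet averaged. *Trhr* ran from -0.28 to 0.06 for diet in mutants. *Dio2* ran from 1.04 to 1.38 on SD, 1.19 to 1.94 on HFD, -0.30 to 0.45 for diet in controls and -0.04 to 0.71 for the interaction. *Thra* ran from -0.61 to -0.39 on SD, where it passed without P356 (adjusted p = 0.0282), -0.06 to 0.09 for diet in mutants and -0.42 to -0.30 averaged. *Thrb* ran from -0.51 to -0.06 on SD, -0.06 to 0.26 on HFD, 0.06 to 0.45 for diet in mutants, -0.26 to 0.11 for diet in controls, -0.21 to 0.02 averaged and -0.01 to 0.23 for diet averaged. Over all genes, calls ran from 33 to 826 on SD, 0 to 653 on HFD and 441 to 1931 averaged.

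Among correlations, Pearson's r of *Dio2* with *Thra* was -0.77 without subtracting group means (permutation, adjusted p = 0.0077). *Dio2* with *Thrb* fell to 0.32 there (adjusted p = 0.559). With sums without *Prl*, *Dio2* with *Thrb* was 0.72 (adjusted p = 0.0373). In that setting *Dio2* with *Thra* weakened to -0.33 (adjusted p = 0.645) and *Thra* with *Thrb* to -0.08 (adjusted p = 0.904). *Tshb* with *Thra* changed sign there (-0.04). Signs also changed for *Trhr* with *Dio2* (0.09) and with *Thrb* (-0.00) without subtraction, and for *Trhr* with *Dio2* (0.01) and *Tshb* with *Dio2* (0.21) without P357 and P392. The causes were not tested. *Trhr* gives no value at a mean of at least 5, and its low reads limit what could be seen. No paired analysis was possible because the labels give no replicate numbers shared between groups.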
